A study of Homo sapiens with 6 samples.

Results

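Genes of mitochondrial dynamics and mitophagy were described in AC16 cells: MFN1, MFN2, OPA1, DNM1L, FIS1, PINK1, BNIP3, BNIP3L and SPATA18. They were chosen by name for their roles, with earlier results of these data known, and all 9 were found by Ensembl ID among the 58299 genes of the count table. Poly(A) RNA was sequenced from 3 samples given 100 nM doxorubicin for 48 h and from 3 samples given the vehicle, 0.1% DMSO, for 48 h. Doxorubicin, an anthracycline, damages DNA by trapping topoisomerase II, and the series title places the comparison in a study of its toxicity to heart cells and of NRF2. AC16 is a human line made by fusing adult ventricular heart cells with a fibroblast line, and both groups share this 1 line. The labels do not state whether replicates are separate cultures. The p-values rest on the spread among the 3 samples of a group, and that spread may be technical. In the fit over all genes the spread is partly pooled between genes.

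Mitochondria join and divide all the time. Mitofusins, the GTPases encoded by MFN1 and MFN2, fuse outer membranes, and OPA1 fuses inner membranes and shapes cristae. DRP1, the GTPase encoded by DNM1L, is recruited to the outer membrane by adaptors and constricts the organelle, and FIS1 is an outer-membrane protein of the fission machinery. Damaged mitochondria are removed by mitophagy, in which the kinase PINK1 marks them through ubiquitin, or the membrane receptors BNIP3 and BNIP3L bind LC3 on the autophagosome directly. SPATA18, also called Mieap, is a p53 target that acts in mitochondrial quality control. Heart muscle is rich in mitochondria and depends on this turnover.

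Library totals ranged from 17252862 to 18665979 counts in doxorubicin and from 17929419 to 19571731 counts in DMSO. Of 12 cardiomyocyte markers, only TTN passed the expression filter, and it was called higher, so most defining genes of heart muscle were below the filter in these cells. Their summed level was 8.39 to 10.98 CPM in doxorubicin and 5.78 to 6.52 CPM in DMSO. CPM is a count per 1000000 library counts, here with library totals scaled by TMM factors. All 8 fibroblast markers passed, 5 of them were lower in doxorubicin, and their summed level was 12940 to 16560 CPM in doxorubicin and 22620 to 24990 CPM in DMSO. Endothelial markers summed to 9.43 to 10.8 CPM in doxorubicin and 14.5 to 16.6 CPM in DMSO, leukocyte markers to 3.80 to 4.42 and 3.86 to 4.69 CPM, and smooth muscle markers to 213 to 362 and 290 to 426 CPM. Of 4 smooth muscle markers 2 were called higher and 0 lower, although their summed ranges overlapped between groups; 1 endothelial marker was higher and 1 lower of 4 tested, and 1 leukocyte marker was lower of 3 tested. No marker was at 0 in every library, and the part of these shifts in the results below was not tested. In bulk RNA, fewer cells of a type and less RNA per cell cannot be told apart.

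After doxorubicin, 4 of the 9 genes were higher (MFN2, BNIP3, BNIP3L and SPATA18), 4 were lower (MFN1, OPA1, DNM1L and FIS1), and PINK1 was not called. A gene was called at a Benjamini-Hochberg adjusted p under 0.05 in edgeR's quasi-likelihood test over 15358 genes, of which 32.7% were called higher and 32% lower. Most genes of these cells were therefore called (64.7%), and the members' share is read against that background. SPATA18 was the only member to change at least 2-fold; 14.2% of tested genes rose by that much and 6.26% fell by that much. The median absolute log2 fold change was 0.54 over the 9 genes and 0.46 over all tested genes. All 9 genes passed the filter on low counts, but SPATA18 passed only through the doxorubicin libraries, so the count of genes that passed supports nothing by itself. In each of the 8 called genes doxorubicin replicate 1 lay farthest from the DMSO mean, which was the case in 51.2% of all called genes. Without it the same counts held, 4 higher and 4 lower.

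**Figure D1:**
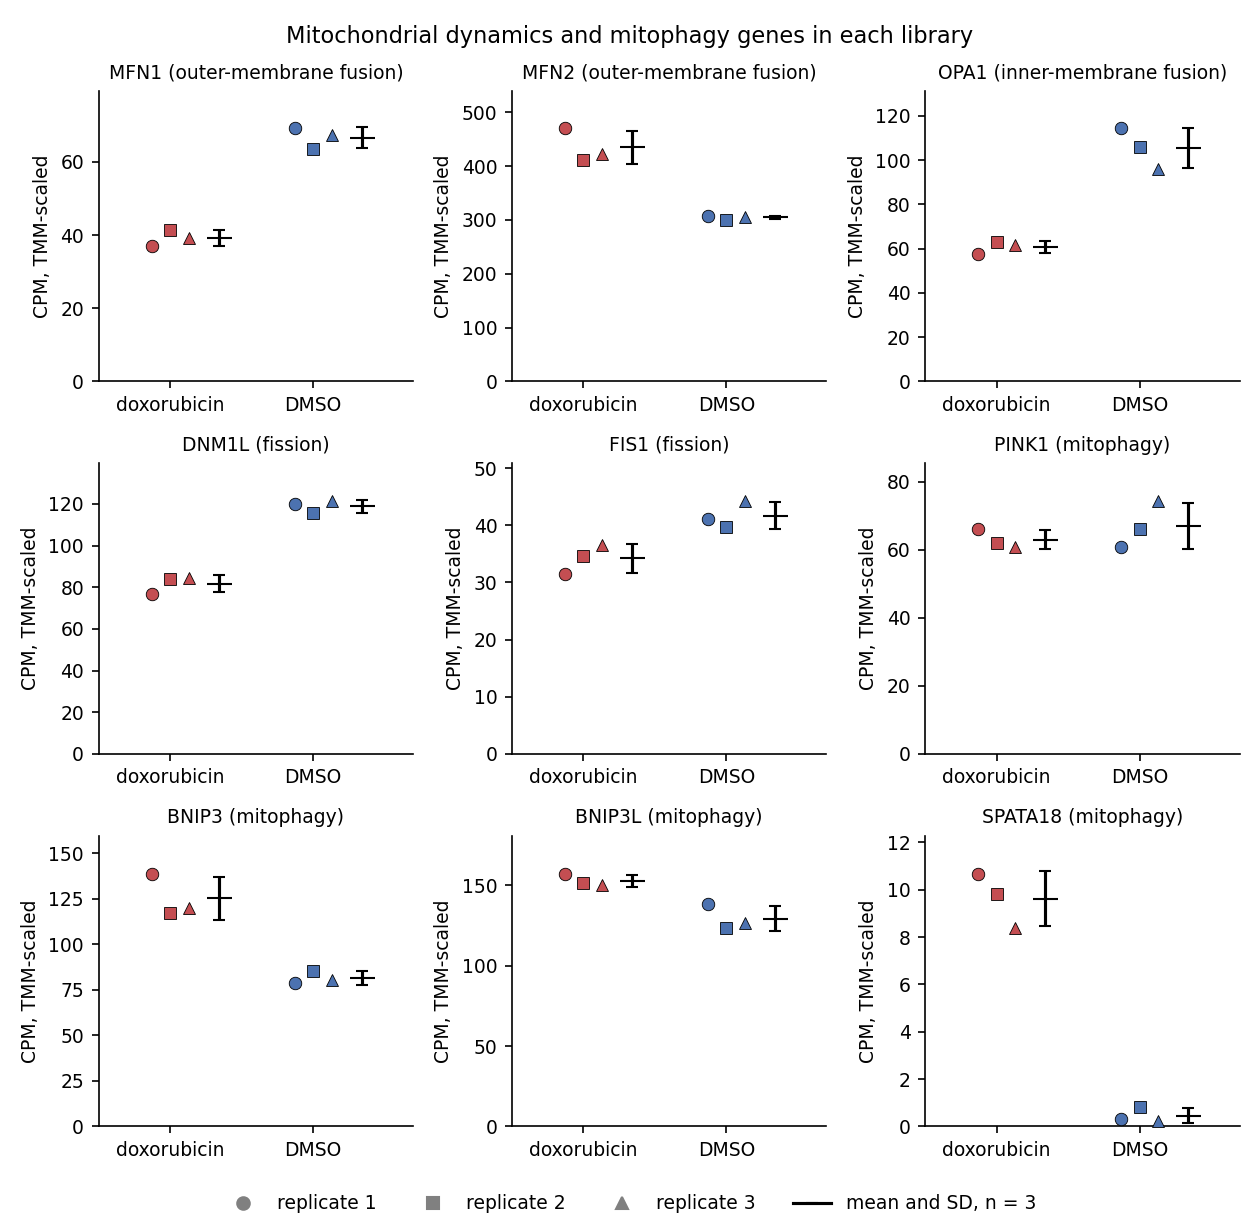
TMM-scaled CPM of each gene in each library, with doxorubicin left and DMSO right; symbols mark the replicate number and bars the mean and SD of 3 libraries. The groups stand apart in 8 panels, and in the PINK1 panel they overlap.

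The mitofusins moved in opposite directions. MFN1 (chr3:179347692-179394931, GRCh38, plus strand) had 36.9, 41.4 and 39.2 CPM in doxorubicin replicates 1 to 3, against 69.2, 63.6 and 67.3 CPM in DMSO replicates 1 to 3. Every doxorubicin library was below every DMSO library. MFN1 fell 1.7-fold (log2 fold change -0.77 ± 0.07 SE, adjusted p = 1.3e-07, edgeR). MFN2 (chr1:11980181-12013514, plus strand) had 470, 412 and 423 CPM in doxorubicin replicates 1 to 3, against 308, 301 and 306 CPM in DMSO replicates 1 to 3. The doxorubicin libraries were all higher, and the DMSO libraries differed among themselves by little (SD 3.61 CPM, n = 3). MFN2 rose 1.43-fold (log2 fold change 0.51 ± 0.06 SE; adjusted p = 2.7e-06, edgeR). Groups that do not overlap are common here: this held for 8 of the 9 genes and for 69.1% of all tested genes, 34.8% wholly higher and 34.3% wholly lower in doxorubicin.

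Because the direction of these paralogs differed, the ratio of MFN2 to MFN1 was taken within each library, which needs no scaling between libraries. Per kilobase of exon, MFN2 counts were 15.3, 11.9 and 12.9 times those of MFN1 in doxorubicin replicates 1 to 3, against 5.33, 5.66 and 5.44 times in DMSO replicates 1 to 3. The ratio was 2.43-fold higher after doxorubicin, and the groups did not overlap (exact permutation test over the 6 libraries, two-sided p = 0.10, the smallest that 3 against 3 allows; adjusted over 3 gene pairs 0.10). Every doxorubicin library was already higher for MFN2 and lower for MFN1, so that p-value and the lack of overlap were fixed beforehand. They add no support to the calls of the 2 genes, and the ratio only describes its size. MFN1 thus held 6.14 to 7.75% of the mitofusin level per exon length in doxorubicin and 15.01 to 15.8% in DMSO.

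The promoter windows of the mitofusin genes are shown because the paralogs moved apart. They are RefSeq windows of 300 bases (GRCh38.p14), read 5′ to 3′ on the gene's strand. Each runs 250 bases before to 50 bases from the start that RefSeq gives. That start can differ from the gene start in the count table. The MFN2 window begins at 11980194, after the MFN2 start of 11980181 in the count table. Capitals mark a match to a motif. The MFN1 window is chr3:179347459-179347758 and the MFN2 window chr1:11980194-11980493, both on the plus strand.
MFN1: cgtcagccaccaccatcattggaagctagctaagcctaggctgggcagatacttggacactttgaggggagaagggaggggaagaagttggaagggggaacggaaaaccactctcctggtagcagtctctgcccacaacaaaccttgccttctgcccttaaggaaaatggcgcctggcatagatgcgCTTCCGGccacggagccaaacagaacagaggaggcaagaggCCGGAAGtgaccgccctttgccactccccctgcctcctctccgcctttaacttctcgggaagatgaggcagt
MFN2: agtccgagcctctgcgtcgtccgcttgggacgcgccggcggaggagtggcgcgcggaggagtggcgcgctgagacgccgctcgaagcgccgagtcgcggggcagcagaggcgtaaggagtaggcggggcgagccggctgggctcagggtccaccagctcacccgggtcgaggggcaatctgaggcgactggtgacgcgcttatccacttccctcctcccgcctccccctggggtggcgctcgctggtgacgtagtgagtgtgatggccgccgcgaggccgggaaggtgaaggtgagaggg
The capitals in MFN1 are matches to CCGGAAG on either strand, the core bound by ETS factors, at 63 to 57 and at 22 to 16 bases before the start. That core occurs in 10.3% of all 35116 promoter windows, and the MFN2 window holds no match to it. The other motifs searched on both strands, which were chosen after the windows had been seen, were ACGTG (hypoxia response core), CACGTG (E-box, which contains that core on both strands), TGACNNNGC (antioxidant response element), GCGCAT joined to GCGC (NRF1 site) and the p53 decamer. Neither mitofusin window holds any of those. The ETS core was not set in advance either, so its matches in MFN1 and not in MFN2 are description only. Matches describe letters in these windows and no binding was measured.

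OPA1, the inner-membrane fusion gene, was also lower (chr3:193593144-193697823, plus strand). It had 57.6, 62.8 and 61.5 CPM in doxorubicin replicates 1 to 3, against 114, 106 and 96.1 CPM in DMSO replicates 1 to 3. The groups were far apart, with the DMSO libraries the more spread of the pair (SD 2.75 CPM in doxorubicin and 9.13 CPM in DMSO). OPA1 fell 1.74-fold (log2 fold change -0.80 ± 0.07 SE, adjusted p = 9.1e-08, edgeR), a decrease that its SE does not separate from that of MFN1. Exons of OPA1-AS1, on the opposite strand, cover 2.30% of OPA1's exon bases, and that gene had 8 counts in all 6 libraries.

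Both fission genes were lower. DNM1L (chr12:32679200-32745650, plus strand) had 77.0, 83.7 and 84.6 CPM in doxorubicin replicates 1 to 3, against 120, 115 and 121 CPM in DMSO replicates 1 to 3. It fell 1.45-fold (log2 fold change -0.54 ± 0.06 SE, adjusted p = 1.5e-06, edgeR), with no overlap between the groups. An unnamed gene on the opposite strand, ENSG00000275854, covers 2.77% of its exon bases and had 55 counts in all 6 libraries. FIS1 (chr7:101239458-101252316, minus strand) had 31.5, 34.6 and 36.5 CPM in doxorubicin replicates 1 to 3, against 41.1, 39.6 and 44.2 CPM in DMSO replicates 1 to 3. The groups lay close together here, the highest doxorubicin library 36.5 and the lowest DMSO library 39.6 CPM. FIS1 fell 1.22-fold (log2 fold change -0.28 ± 0.08 SE, adjusted p = 0.0061, edgeR).

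The ratio of DNM1L to OPA1, the fission GTPase to the inner-membrane fusion GTPase, was 1.66, 1.66 and 1.71 per exon length in doxorubicin replicates 1 to 3, against 1.30, 1.36 and 1.57 in DMSO replicates 1 to 3. In these libraries OPA1 thus fell by more than DNM1L, by a factor of 1.19. The groups did not overlap, but DMSO replicate 3 lay close to the doxorubicin libraries (exact permutation test, two-sided p = 0.10, the smallest possible; adjusted over 3 pairs 0.10).

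PINK1, the kinase that starts ubiquitin-dependent mitophagy, was not called (chr1:20633455-20651511, plus strand). It had 66.1, 62.1 and 60.9 CPM in doxorubicin replicates 1 to 3, against 60.9, 66.1 and 74.4 CPM in DMSO replicates 1 to 3. The groups overlapped. Its log2 fold change was -0.09 ± 0.08 SE (adjusted p = 0.32, edgeR; approximate 95% interval -0.26 to 0.07). Exons of PINK1-AS on the opposite strand cover 39.4% of PINK1's exon bases, and these libraries carry no strand; MIR6084, which also lies there, had 0 counts. PINK1-AS itself had 10.9, 8.81 and 9.63 CPM in doxorubicin replicates 1 to 3, against 7.99, 8.44 and 6.96 CPM in DMSO replicates 1 to 3 (log2 fold change 0.33 ± 0.14 SE, adjusted p = 0.046, edgeR), a call lost in 8 of 14 alternatives. Where the pair overlap, their reads cannot be told apart.

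The mitophagy receptor genes were higher. BNIP3 (chr10:131966455-131982013, minus strand) had 139, 117 and 120 CPM in doxorubicin replicates 1 to 3, against 78.6, 85.6 and 80.3 CPM in DMSO replicates 1 to 3. All doxorubicin libraries were above all DMSO libraries, replicate 1 the highest. BNIP3 rose 1.54-fold (log2 fold change 0.62 ± 0.07 SE, adjusted p = 1.6e-06, edgeR). The table holds 39 annotated BNIP3 pseudogenes, which together had 126 counts, 1.11% of the 11309 counts of BNIP3; the sources used here do not give how reads matching several copies were counted.

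BNIP3 is known as a target of hypoxia-inducible factors, and its promoter window (chr10:131981874-131982173, minus strand, GRCh38.p14) is shown for the motif it holds.
BNIP3: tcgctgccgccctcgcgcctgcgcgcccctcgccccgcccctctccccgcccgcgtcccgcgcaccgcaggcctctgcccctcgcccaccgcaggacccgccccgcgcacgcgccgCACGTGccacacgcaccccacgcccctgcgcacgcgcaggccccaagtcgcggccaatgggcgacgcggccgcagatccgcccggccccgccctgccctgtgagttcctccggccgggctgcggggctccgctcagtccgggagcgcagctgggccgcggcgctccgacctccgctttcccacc
The capitals are CACGTG, 134 to 129 bases before the start that RefSeq gives. This E-box contains the hypoxia response core ACGTG on each strand, so those matches are 1 place. An E-box occurs in 7.26% and the hypoxia core in 21.4% of all promoter windows.

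BNIP3L, which encodes the related receptor NIX (chr8:26382898-26505636, plus strand), had 157, 151 and 150 CPM in doxorubicin replicates 1 to 3, against 138, 123 and 126 CPM in DMSO replicates 1 to 3. The gap between the groups was 150 against 138 CPM at its narrowest. BNIP3L rose 1.18-fold (log2 fold change 0.24 ± 0.06 SE, adjusted p = 0.0032, edgeR). Exons of other genes cover 8.96% of its exon bases, most of it in the opposite-strand gene PNMA2 and the rest in the pseudogene SDAD1P1, which had 130 counts. PNMA2 had 3419 counts, BNIP3L 15462, and PNMA2 was itself lower (log2 fold change -0.29 ± 0.12 SE, adjusted p = 0.039, edgeR), a call lost in 7 of 14 alternatives. The ratio of BNIP3L to BNIP3 per exon length was 1.40, 1.60 and 1.55 in doxorubicin replicates 1 to 3, against 2.18, 1.78 and 1.95 in DMSO replicates 1 to 3. In these libraries BNIP3 rose by more than BNIP3L, with no overlap of the ratios (exact permutation test, two-sided p = 0.10, the smallest possible; adjusted over 3 pairs 0.10).

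SPATA18 changed most. This gene (chr4:52051331-52097292, plus strand) had 10.7, 9.81 and 8.39 CPM in doxorubicin replicates 1 to 3, against 0.335, 0.833 and 0.221 CPM in DMSO replicates 1 to 3. It was near silent in DMSO, with 6, 16 and 4 counts, and had 188, 186 and 150 counts in doxorubicin. SPATA18 rose 20.2-fold (log2 fold change 4.34 ± 0.28 SE, adjusted p = 1.3e-09, edgeR). It ranked 250 from the top of the 15358 tested genes. The size rests on few DMSO counts: 26 in all against 524 in doxorubicin, a ratio of 20.4 with an exact 95% interval of 13.8 to 31.6 for counting error only. Without DMSO replicate 2 the rise was 33.6-fold, and without DMSO replicate 3 it was 16.04-fold.

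The promoter window of SPATA18 (chr4:52051054-52051353, plus strand, GRCh38.p14) is shown as that of the gene with the largest change.
SPATA18: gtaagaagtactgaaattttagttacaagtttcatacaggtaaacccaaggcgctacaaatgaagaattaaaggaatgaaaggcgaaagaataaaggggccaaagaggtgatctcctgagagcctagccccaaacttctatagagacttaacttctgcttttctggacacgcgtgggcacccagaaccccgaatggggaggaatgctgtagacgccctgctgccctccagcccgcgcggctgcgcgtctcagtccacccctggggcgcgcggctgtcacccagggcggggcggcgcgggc
None of the 6 motifs lies in this window, which says nothing of sites elsewhere in the gene. Windows were found for 7 of the 9 genes. PINK1 and BNIP3L had no entry. Among the remaining ones, the NRF1 site occurs once in OPA1, against 1.24% of all windows, and the ETS core once in FIS1. The FIS1 window, chr7:101245032-101245331 on the minus strand, lies inside the FIS1 locus of the count table. No window of these 7 genes holds an antioxidant response element (13.3% of all windows) or a p53 decamer (6.63%).

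**Figure D2:**
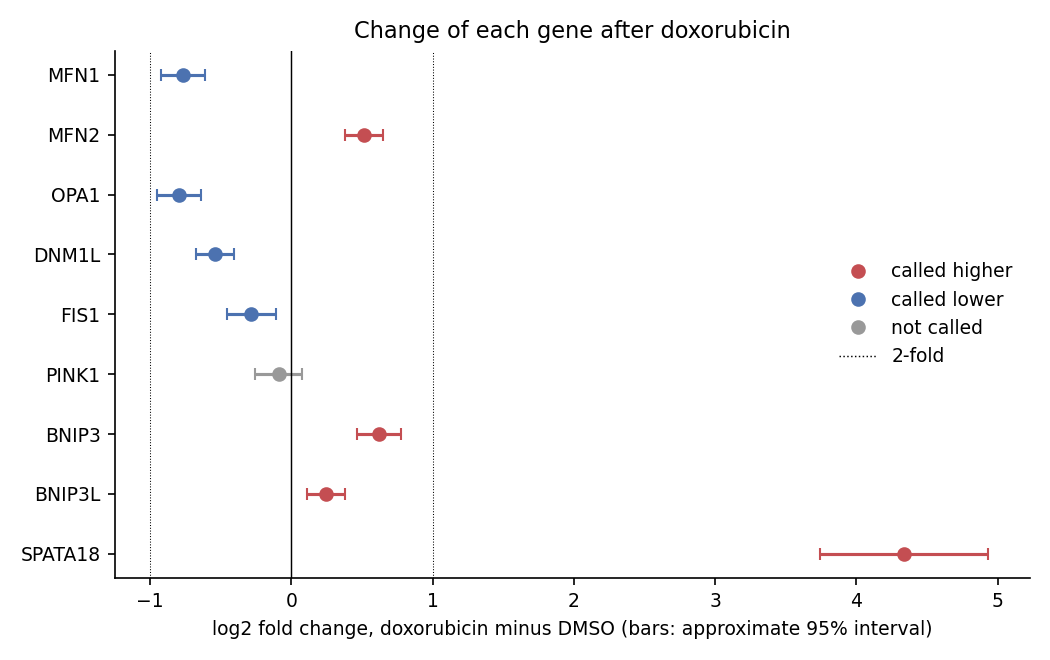
Log2 fold change of each gene, doxorubicin minus DMSO, with approximate 95% intervals from the edgeR fit; dotted lines mark 2-fold. SPATA18 stands at 4.34, the other called genes lie between -0.80 and 0.62, and the interval of PINK1 crosses 0.

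**Figure D3:**
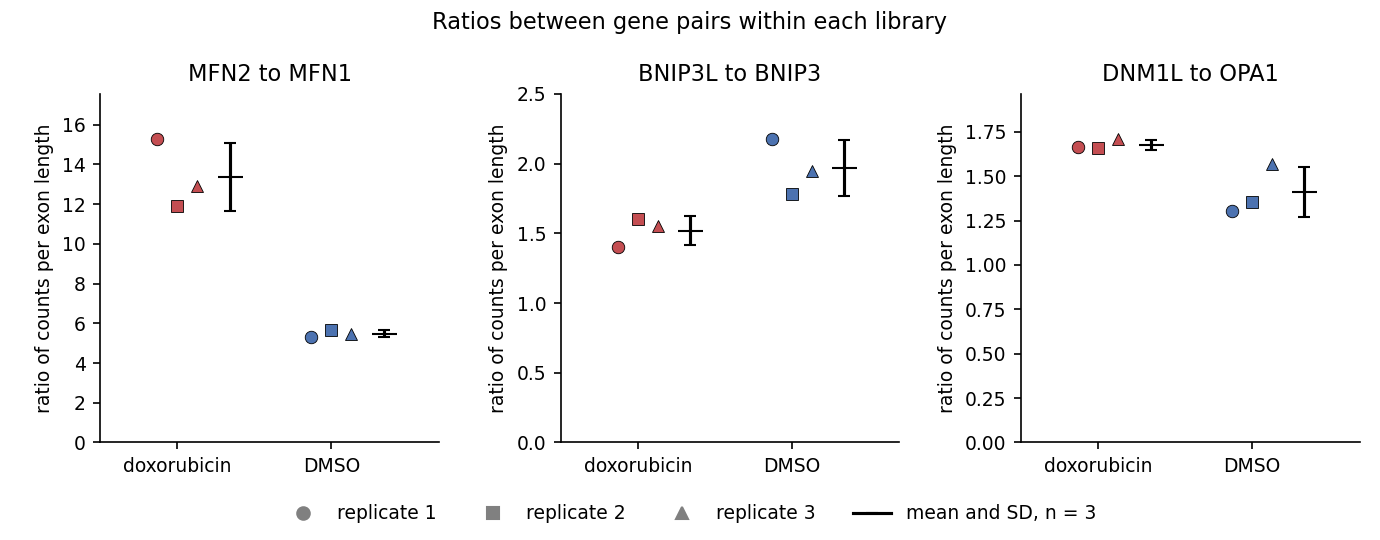
Ratio of counts per exon length between gene pairs in each library, doxorubicin left and DMSO right, with mean and SD of 3 libraries. MFN2 to MFN1 is 11.9 to 15.3 in doxorubicin and 5.33 to 5.66 in DMSO, BNIP3L to BNIP3 is lower in doxorubicin, and DNM1L to OPA1 is higher.

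Levels were compared between genes per kilobase of exon, as CPM per kilobase. In doxorubicin the order was MFN2 (87.5), BNIP3L (35.5), BNIP3 (23.5), FIS1 (19.1), PINK1 (13.03), DNM1L (11.2), OPA1 (6.70), MFN1 (6.58) and SPATA18 (1.95). Only OPA1 and MFN1 overlapped there. In DMSO the order was MFN2 (61.3), BNIP3L (30.0), FIS1 (23.2), DNM1L (16.3), BNIP3 (15.3), PINK1 (13.9), OPA1 (11.6), MFN1 (11.2) and SPATA18 (0.0937). Neighbours from DNM1L down to MFN1 overlapped in their ranges. Exons of other genes cover 41.7% of PINK1's exon bases, and how reads there were counted is not given. The level of PINK1 per kilobase, and its place in both orders, are therefore uncertain. BNIP3 thus ranked 3 of 9 in doxorubicin and 5 of 9 in DMSO, where its range overlapped those of DNM1L and PINK1. MFN2 was above 96.95% of tested protein-coding genes in doxorubicin and above 94.91% in DMSO, while SPATA18 was above 27.9% in doxorubicin and 4.02% in DMSO.

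The genes whose pattern over the 6 libraries was most like that of the most changed member of each role were listed by the root mean square difference of centred log2 CPM among 12962 protein-coding genes. Nearest to OPA1 were CHD3 (0.034), NRAS (0.034) and BST1 (0.036), and 1973 genes lay within 0.2, so many genes share that pattern. DNM1L had ANXA5 (0.017), EIF3J (0.017) and TNIK (0.021) nearest and 3490 genes within 0.2. For SPATA18 the nearest were IGDCC4 (0.22), SYTL1 (0.26) and ELAPOR1 (0.28), and no gene lay within 0.2. The distance is not scaled to the size of a change, and its median was 0.43 from OPA1 and 2.18 from SPATA18. Numbers of genes within 0.2 therefore cannot be compared between these members.

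Other genes of the same processes were then counted in the same fit, PGAM5, RHOT1 and RHOT2 in 2 lists each. Among 15 partners of fusion and of OPA1 processing, all tested, 3 rose and 4 fell, so 46.7% were called, against 64.7% of all tested genes. Their median log2 fold change was -0.10, and that of all tested genes -0.0013. PLD6, an outer-membrane phospholipase that promotes mitofusin-driven fusion, rose 6.24-fold to 25.0 ± 2.94 CPM in doxorubicin, against 3.996 ± 0.426 CPM in DMSO (SD, n = 3 each; log2 fold change 2.64 ± 0.13 SE, adjusted p = 4.6e-11, edgeR). Exons of other genes cover 24.5% of its exon bases, the largest overlap being with a gene of 9 counts. SPG7, a protease subunit, and MIGA2, which encodes mitoguardin 2, were the others that rose (log2 fold change 0.17 each, adjusted p = 0.036 and 0.038, edgeR). PLD6 alone remained without doxorubicin replicate 2 or 3, or without DMSO replicate 1 or 2. AFG3L2, another protease subunit of the inner membrane, fell to 70.0 ± 1.57 CPM in doxorubicin, against 105.5 ± 2.25 CPM in DMSO (SD, n = 3 each), and PHB2, a prohibitin of the inner membrane, fell to 148 ± 12.1 CPM, against 217 ± 6.40 CPM. MSTO1 and MTCH2 fell as well. For AFG3L2, 12.6% of the exon bases lie in other genes, chiefly TUBB6, which lies opposite and had 65588 counts, while AFG3L2 had 9635.

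Fission adaptors and regulators also moved both ways, 5 higher and 4 lower of 15 tested. That is 60.0% called, close to the 64.7% of all tested genes, and the median log2 fold change was -0.09. MIEF1, an outer-membrane receptor for DRP1, rose to 133 ± 7.70 CPM in doxorubicin, against 99.4 ± 2.77 CPM in DMSO (SD, n = 3 each; log2 fold change 0.42 ± 0.06 SE, adjusted p = 2.4e-05, edgeR). The DRP1 receptors MFF and MIEF2, the ubiquitin ligase MARCHF5 and the SUMO protease SENP5 rose by less (log2 fold changes 0.19 to 0.26). Their number fell to 2 without doxorubicin replicate 2 and to 3 without doxorubicin replicate 3, DMSO replicate 1 or DMSO replicate 2, MIEF1 and MARCHF5 being called each time. MTFR1, a fission regulator, fell to 39.4 ± 2.44 CPM in doxorubicin, against 71.99 ± 4.97 CPM in DMSO, and PGAM5, a mitochondrial phosphatase, fell to 79.7 ± 2.01 CPM, against 112 ± 5.83 CPM (SD, n = 3 each). MTFR1L and MUL1 were the other ones that fell, with 25.7% of MTFR1L's exon bases in other genes and MUL1 at an adjusted p of 0.049 (edgeR) that was lost in 10 of 14 alternatives. Of the DRP1 receptor genes, MIEF1 kept its call in all 14 alternatives, and MFF and MIEF2 kept theirs in 9 each.

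In the ubiquitin-linked branch of mitophagy, 5 genes rose and 6 fell of 17 tested. The share called, 64.7%, equals that of all tested genes, and the median log2 fold change was -0.05. SQSTM1, the autophagy receptor p62, had 644, 374 and 381 CPM in doxorubicin replicates 1 to 3, against 161, 163 and 163 CPM in DMSO replicates 1 to 3 (log2 fold change 1.52 ± 0.25 SE, adjusted p = 0.0045, edgeR). Doxorubicin replicate 1 was much the highest, and 22.0% of SQSTM1's exon bases lie in other genes, chiefly MRNIP on the opposite strand (1941 counts in MRNIP, 34188 in SQSTM1). Without that library SQSTM1 was still higher (log2 fold change 1.22). OPTN, the ubiquitin-binding receptor optineurin, rose to 202 ± 5.80 CPM in doxorubicin, against 96.6 ± 5.56 CPM in DMSO (SD, n = 3 each). USP15, NBR1 and TBK1, the kinase that phosphorylates optineurin, rose by 0.41 to 0.59 on the log2 scale. RHOT1, the outer-membrane GTPase Miro1, fell to 13.9 ± 1.33 CPM in doxorubicin, against 29.6 ± 1.34 CPM in DMSO (log2 fold change -1.08 ± 0.10 SE, adjusted p = 6.0e-08, edgeR). The others that fell were the segregase gene VCP (log2 fold change -0.75), the deubiquitinase gene USP30 (-0.66), RHOT2 (-0.23), TOMM20 (-0.19) and PARK7 (-0.14), the last a call lost in 11 of 14 alternatives.

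Of 13 further mitophagy receptors and their controllers, all tested, 3 rose and 6 fell. The 69.2% called is near the 64.7% of all tested genes, and the median log2 fold change was -0.16. NLRX1, a mitochondrial NOD-like receptor protein reported to act in mitophagy, rose 5.22-fold to 76.0 ± 4.32 CPM in doxorubicin, against 14.6 ± 0.816 CPM in DMSO (SD, n = 3 each; log2 fold change 2.38 ± 0.08 SE, adjusted p = 5.5e-13, edgeR). BCL2L13, an LC3-binding receptor of the outer membrane, and ULK1, the kinase that starts autophagy, rose by 0.24 and 0.36 on the log2 scale. NIPSNAP2, which helps recruit autophagy receptors to damaged mitochondria, fell to 25.7 ± 0.213 CPM in doxorubicin, against 44.1 ± 0.775 CPM in DMSO. RHEB, the small GTPase that activates mTORC1, fell to 77.9 ± 5.68 CPM, against 113 ± 0.491 CPM. FUNDC1, the hypoxia-linked receptor, was not called (log2 fold change -0.30 ± 0.13 SE, adjusted p = 0.058, edgeR), although it was called lower in 4 of 14 alternatives.

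Since BNIP3 is a hypoxia target, hypoxia-inducible factors, their regulators and their targets were counted too. Of 21 tested, 8 fell and 9 rose, among them 6 by at least 2-fold. In all 81.0% were called, against 64.7% of all tested genes, of which 14.2% rose at least 2-fold. The median log2 fold change of this list was -0.07. PFKFB4, a regulator of glycolysis, rose 16.2-fold to 181 ± 13.2 CPM in doxorubicin, against 11.2 ± 2.32 CPM in DMSO, and NDRG1 rose 6.50-fold to 249 ± 57.3 CPM, against 38.3 ± 3.70 CPM (SD, n = 3 each). EPAS1, which encodes HIF-2 alpha, rose 11.25-fold to 631 ± 7.91 CPM in doxorubicin, against 56.1 ± 4.77 CPM in DMSO (log2 fold change 3.49 ± 0.07 SE, adjusted p = 2.8e-15, edgeR). HIF1A, which encodes HIF-1 alpha, was not called (log2 fold change -0.11 ± 0.06 SE, adjusted p = 0.11). The other genes that rose were VEGFA (5.15-fold), BHLHE40 (6.40-fold), MXI1 (2.93-fold), PFKFB3 (1.54-fold), SLC2A1 (1.39-fold) and KDM3A (1.32-fold). Those that fell were ADM, ERO1A, EGLN2, ANKRD37, P4HA1, EGLN1, LDHA and PDK1, with log2 fold changes of -1.07 to -0.37, and PDK1 lost its call in 6 of 14 alternatives. Exons of UCN2 on the same strand cover 4.73% of PFKFB4's exon bases, and UCN2 had 3308 counts. Other genes cover 35.2% of ANKRD37's exon bases, the largest overlap being with opposite-strand UFSP2 (1311 counts in UFSP2, 421 in ANKRD37). For EGLN2, with 450 counts, they cover 30.6%, the largest overlap being with RAB4B-EGLN2 on the same strand, which had 0 counts. Genes of this list thus moved in both directions. Whether hypoxia signalling had a part in the rise of BNIP3 was not tested.

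**Figure D4:**
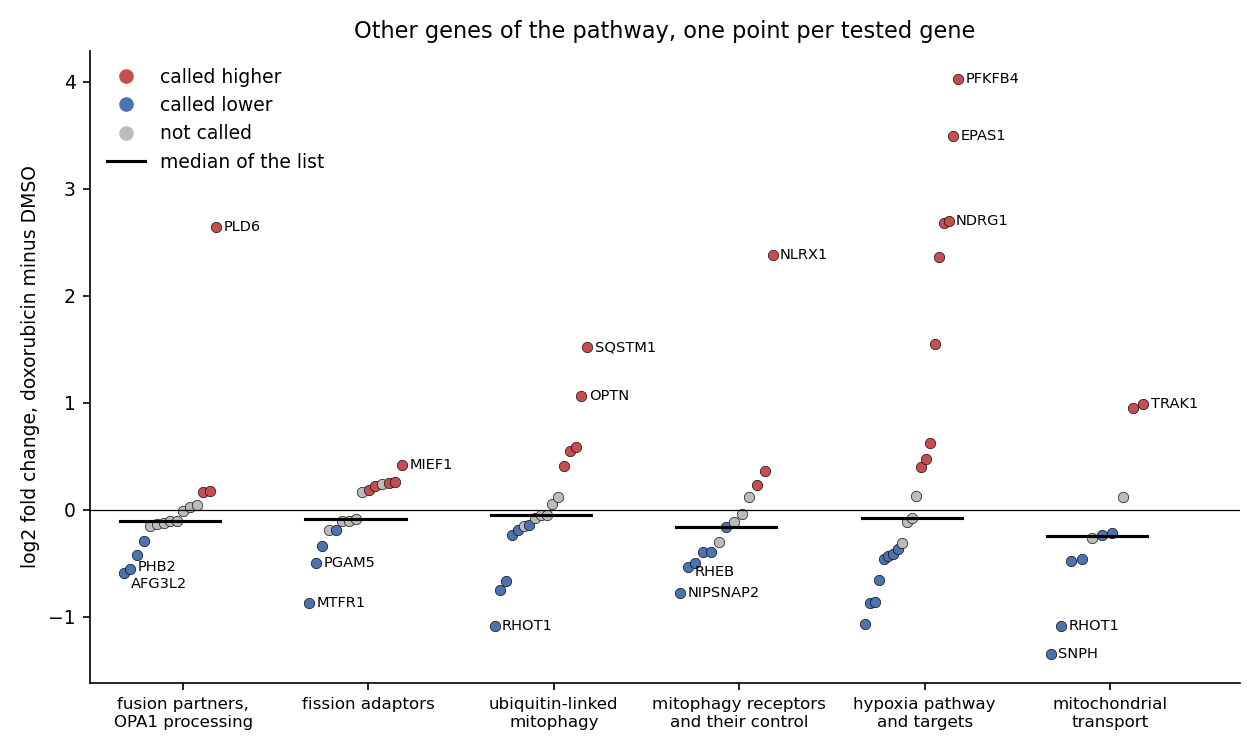
Log2 fold change, doxorubicin minus DMSO, of every tested gene of the 6 related lists, coloured by its edgeR call; black bars are list medians. Each list holds genes on both sides of 0, and the medians lie between -0.25 and -0.05.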

How the data were processed

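The authors deposited 1 table of raw gene counts, laid out as featureCounts writes it (per the file headers), with a column for each library; the summed exon length in it served to compare levels between genes. Per the submitters' processing notes, STAR, SAMtools, Subread and featureCounts were used with GRCh38 (hg38); versions, annotation and settings are not given in the sources used here. Libraries were unstranded and poly(A)-selected, per the labels' protocols. Symbols came from a gene name table (57717 of 58299 IDs), and GENCODE release 29 gave gene types; start and end of all 9 members equal that release. No columns of other samples were present (0).

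These counts went into edgeR 4.0.16 (R 4.3.3). Genes were filtered by filterByExpr (minimum count 10, total 15), scaled by TMM and fitted with robust dispersions; doxorubicin was set against DMSO by a two-sided quasi-likelihood F test, with Benjamini-Hochberg adjustment over all tested genes. Group values are mean ± SD. An approximate SE was taken as log2 fold change over the root of F. On counts simulated from these libraries (15066 genes tested) the procedure recovered 63.3% of 49 genes changed 1.5-fold and 87.8% of 49 changed 2-fold. It called 16 of 14872 unchanged genes. Far fewer genes were changed in the simulation than the 64.7% called in the data, so these rates may not carry over. Pairs of replicates differed by more than sampling noise (chi-square per degree of freedom 2.82 to 9.39), so each library counted once.

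The members and lists were chosen with earlier results of these data known. Named beyond the members are the 3 called genes of each list that changed most and whose log2 CPM averaged 1 or more. Also named are all genes behind counts of 5 or fewer in those lists, and the 3 nearest patterns. Of the called cell type markers only TTN is named. FUNDC1, HIF1A and the remaining called genes of the ubiquitin-linked, hypoxia and transport lists were chosen after their values were seen. Alternatives tried were library totals, scaling by RLE or by the upper quartile, DESeq2 1.42.0, no filter, 1 CPM in 3 libraries, the replicate block, the 50 most abundant genes left out, and each library left out. A withheld item is not reported here.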

Additional observations from a re-analysis of the deposited data

How the results depend on the processing

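All 9 genes kept their direction and call under each of 14 alternatives, with 4 higher and 4 lower in every one. SPATA18 had log2 fold changes of 4.003 to 5.07, and PINK1 stayed uncalled at -0.16 to -0.02 (adjusted p 0.085 to 0.87). The highest adjusted p was 0.026 for FIS1 and 0.035 for BNIP3L, both with a library left out. Of 15 fusion partners, 1 rose with no filter and 1 with DESeq2, and 1 to 3 with a library left out; of 15 fission adaptors, 3 rose with no filter, 2 with DESeq2, and 2 to 5 with a library left out. Other named genes reversed in no alternative (0); SPG7, MIGA2, MFF, MIEF2, SENP5, MUL1, PARK7, PDK1, PINK1-AS and PNMA2 lost their calls in some, and FUNDC1 gained one. The cause of the lower counts with no filter and with DESeq2 was not tested. The log2 differences of the pair ratios ran from 1.18 to 1.36 for MFN2 to MFN1, -0.44 to -0.30 for BNIP3L to BNIP3 and 0.20 to 0.33 for DNM1L to OPA1 when a library was left out. Deviations from the group means correlated at 0.052, -0.023 and 0.027 between samples of equal replicate number. Between unequal numbers they correlated at -0.072 to 0.058. With 3 replicates this cannot show whether the samples were paired. With the replicate block 5003 genes were higher and 4917 lower, against 5017 and 4917, and the 9 genes kept their calls. The low DMSO counts of SPATA18 limit the precision of its fold change. TMM makes all changes relative to the bulk of genes.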

Other observations

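A list of genes of mitochondrial transport and anchoring held 10 tested genes, of which 6 fell and 2 rose, against 32% of all tested genes lower and 32.7% higher. SNPH, which encodes the mitochondrial anchor syntaphilin, fell to 8.65 ± 1.37 CPM in doxorubicin, against 22.0 ± 0.407 CPM in DMSO (SD, n = 3 each; log2 fold change -1.35 ± 0.12 SE, adjusted p = 4.2e-08, edgeR). KIF5B, a kinesin heavy chain, fell to 349 ± 17.9 CPM, against 485 ± 9.88 CPM. RHOT1 and RHOT2, the Miro GTPases that tie mitochondria to motors, were both lower (log2 fold changes -1.08 and -0.23). The actin motor gene MYO19 was lower too (log2 fold change -0.46). Adaptor genes of that complex differed in direction. TRAK2 fell (log2 fold change -0.22 ± 0.06 SE, adjusted p = 0.0075, edgeR), whereas TRAK1 and ARMCX3 rose: TRAK1 had 114 ± 3.54 CPM in doxorubicin, against 57.6 ± 1.997 CPM in DMSO, and ARMCX3 had 108 ± 6.53 CPM, against 55.7 ± 1.74 CPM. For ARMCX3, 10.8% of the exon bases lie in other genes, the largest overlap being with a gene of 1 count. KIF5B, RHOT2, MYO19 and TRAK2 were named after their values were seen.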
